A study of Mus musculus with 235 samples.

Results

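Dual specificity phosphatases and the Sprouty and Spred proteins switch off mitogen-activated protein kinase (MAPK) signalling. The 9 genes described here are Dusp1, Dusp3, Dusp4, Dusp6, Dusp8, Dusp26, Spry2, Spred1 and Spred2. They were taken by symbol from the deposited table of counts, which holds 27998 genes, and all 9 were found in it. The study measured messenger RNA in tissue punched from 8 brain regions of 30 male C57Bl/6 mice, 3 months old. Of these, 15 animals had received an intraperitoneal injection of dexamethasone, a synthetic glucocorticoid, at 10 mg/kg, and 15 had received 0.9% saline as vehicle. All brains were perfused and taken 4 h after the injection, so a vehicle library is tissue of an injected, perfused animal and not of an untouched one. The regions are given by their labels, dCA1, vCA1, dDG and vDG for the hippocampal punches and PFC, AMY, PVN and CER for the others, and each animal gave several of them, which leaves 235 libraries in 16 groups of 13 to 15.

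In the MAPK cascades, growth factor receptors and stress signals act through RAS and a relay of kinases to activate ERK, JNK and p38. Dual specificity phosphatases end the signal by removing the activating phosphates from those kinases, while Sprouty and Spred proteins act upstream, where receptors and RAS feed the ERK branch. Several of these genes are themselves induced by the pathway they inhibit, and in neurons they are part of the response to activity. Dusp1 is a textbook glucocorticoid target through which the hormone restrains p38 and JNK in immune cells.

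Library totals ran from 268538 to 1451422 counts (median 742957). Levels are given as CPM, counts scaled to a common library total, and are compared only within a gene. Marker genes did not follow the labels of all punches, and whether other tissue was present beside the labelled one or in its place was not tested. Gabra6, which marks granule cells of the cerebellum, was at 0 counts in each of the 15 CER libraries of vehicle animals but lay above 100 CPM in 4 other libraries: 1 vCA1 and 2 vDG libraries of vehicle animals and 1 vDG library of a dexamethasone animal. Prox1, the marker of dentate granule cells, stood at 514 ± 140.5 CPM (SD, n = 15) in the vehicle libraries of dCA1 and at 455 ± 249 CPM (SD, n = 15) in those of dDG. A dentate level was computed as the average of log2(CPM + 1) over 6 other genes of the dentate gyrus, and was 3.28 ± 0.787 (SD, n = 14) in vCA1 after vehicle and 4.20 ± 0.757 (SD, n = 15) after dexamethasone. For these reasons vCA1 and vDG results were also computed without the 4 libraries, and hippocampal responses with the dentate level as a covariate.

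Dexamethasone was followed by opposite changes in 2 of the 9 genes. Spry2 was lower in all 8 regions: it fell by 22.1% in PFC and fell by 46.3% in dCA1, with the other 6 between. Dusp1 was higher in 5 regions, by 44.9% to 74.1%, of which dCA1 was not called with the replicate number as a block. Spred1 rose by 17.9% in CER and by 17.5% in PVN. Dusp3, Dusp6, Dusp8, Dusp26 and Spred2 passed edgeR's test in 0 of their 40 tests, with 3 at an unadjusted p under 0.05 and 0 called by DESeq2, and Dusp4 was too sparse to be tested. The 5 tested genes are grouped here by having no call. Over all genes 5.17% of tests were called, so 0 of 40 does not set them apart. The plot of fold changes by gene and region shows this division. In tissue of this kind, fewer cells of a type and less RNA per cell cannot be told apart.

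**Figure D1:**
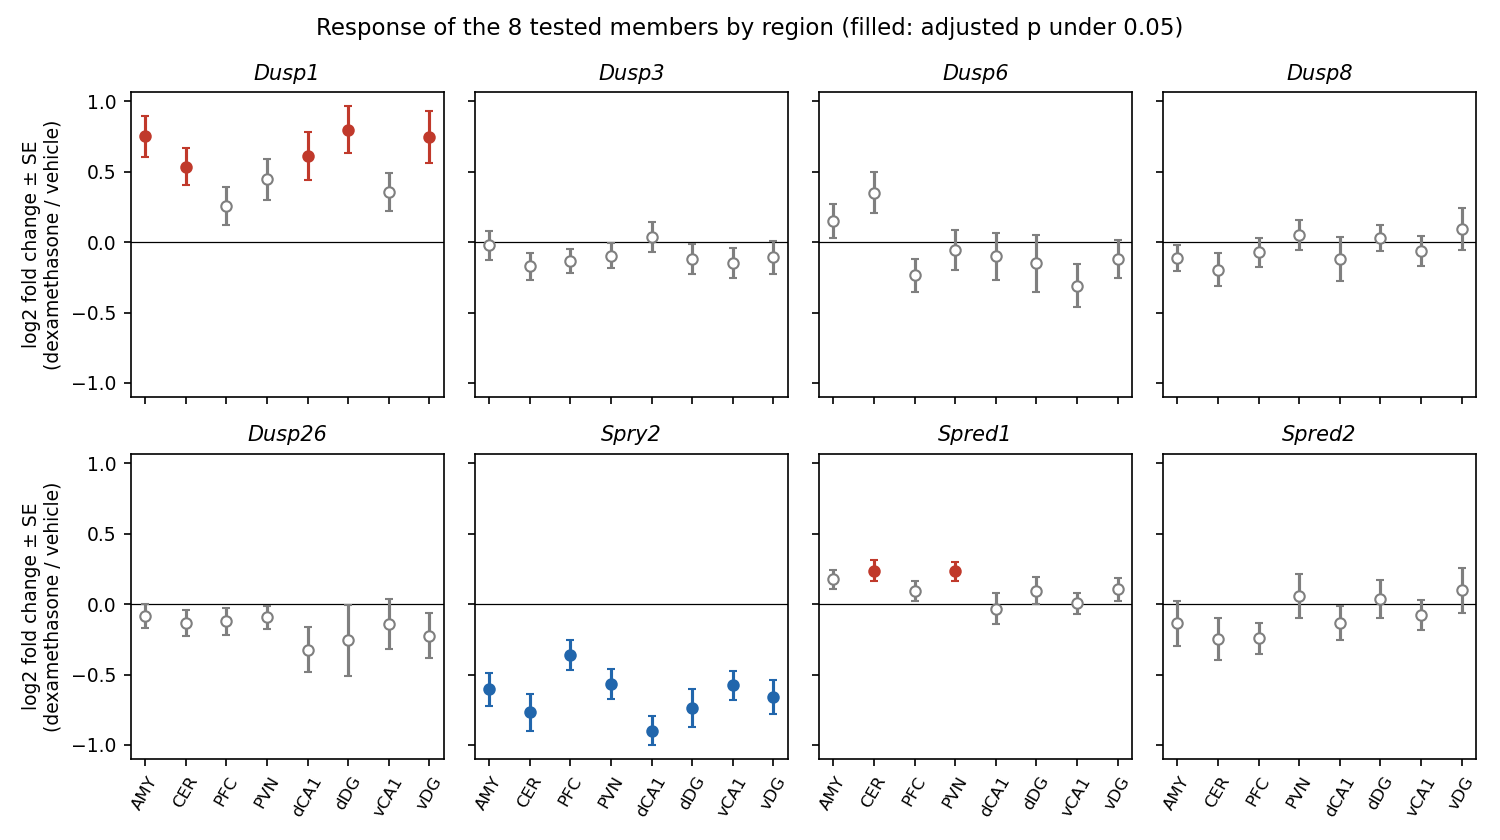
Log2 fold change of dexamethasone over vehicle (vertical axis, ± SE of the edgeR fit) in the 8 regions (horizontal axis) for the 8 genes that could be tested, 1 panel per gene. Filled points passed an adjusted p of 0.05: all 8 regions lie below 0 for Spry2, 5 filled regions lie above 0 for Dusp1, and Spred1 has filled points in CER and PVN.

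Over the 8 regions the genes gave 64 tests, of which 7 were called higher, 8 lower and 49 neither. A call is an adjusted p under 0.05 by edgeR's quasi-likelihood test, with Benjamini-Hochberg adjustment over all genes tested in the region. In AMY, 1 of the 8 tested genes was higher, against 3.54% of all genes tested, and 1 was lower, against 2.08%. In CER 2 were higher (background 3.9%) and 1 lower (2.28%). In PFC 0 were higher (3.86%) and 1 lower (2.28%), and at an unadjusted p under 0.05 the counts were 0 higher and 2 lower. In PVN 1 was higher (3.57%) and 1 lower (2.06%). In dCA1 1 was higher (2.57%) and 1 lower (2.11%), and in dDG 1 was higher (2.33%) and 1 lower (1.37%). In vCA1 0 were higher (3.41%) and 1 lower (2.04%), with 1 higher and 2 lower at an unadjusted p under 0.05, and in vDG 1 was higher (2.64%) and 1 lower (1.29%). DESeq2 also called 0 higher in PFC and in vCA1. The same 8 genes recur in every region, in the same animals, so these counts are not independent of each other. The genes were also chosen with earlier results of these data known. The median log2 fold change of the 64 tests was -0.095, while the medians over all genes lay between -0.016 and 0.0013 in the 8 regions.

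Dusp1 encodes the inducible nuclear phosphatase MKP-1, which removes phosphate from p38, JNK and ERK. The gene lies on chromosome 17 (26505590 to 26508519, minus strand, mm10), and the counts come from its exons near the 3' end. Its promoter and that of Spry2 are shown because these are the genes with the most widespread changes, and because the promoters differ in the elements searched. Both sequences run from 250 bases before to 50 after the start of transcription and are those of RefSeq for GRCm38.p6. They are chr17:26508423-26508722 for Dusp1 and chr14:105896770-105897069 for Spry2, both read 5′ to 3′ on the minus strand, with matches to the searched motifs in capitals.
Dusp1: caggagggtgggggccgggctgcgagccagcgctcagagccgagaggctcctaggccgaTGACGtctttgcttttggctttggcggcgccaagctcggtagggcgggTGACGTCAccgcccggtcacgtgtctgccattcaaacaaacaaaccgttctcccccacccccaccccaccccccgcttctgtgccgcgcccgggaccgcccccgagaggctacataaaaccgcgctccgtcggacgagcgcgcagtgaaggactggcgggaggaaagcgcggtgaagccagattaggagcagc
Spry2: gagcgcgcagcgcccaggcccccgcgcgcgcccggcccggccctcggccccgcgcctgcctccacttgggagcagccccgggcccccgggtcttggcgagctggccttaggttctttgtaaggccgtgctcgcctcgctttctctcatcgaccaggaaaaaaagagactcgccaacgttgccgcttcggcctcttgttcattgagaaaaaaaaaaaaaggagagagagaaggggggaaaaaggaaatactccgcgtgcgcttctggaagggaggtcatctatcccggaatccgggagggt

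The capitals in the Dusp1 promoter mark a full cAMP response element, TGACGTCA, 143 bases before the start, and its shorter core, TGACG, 191 bases before it. The full element contains the core on both strands. A full element stands in 1.79% of the 32851 promoters of the table and a core in 20.8%. Spry2 has neither, and holds no match on either strand to the single glucocorticoid receptor site AGAACA, the ETS site CCGGAAGT or the AP-1 site TGANTCA. The shares of promoters holding these are 19.0%, 3.89% and 7.81%. The full glucocorticoid response element, AGAACA and TGTTCT separated by 3 bases, is in 0.0091% of promoters. Dusp1 has none of these 4 either. Of the 7 members with a promoter in the table, Dusp8 holds 2 full cAMP elements and Spred2 1 core, and Dusp3, Dusp6 and Spred1 hold no match to any of the 6 motifs. A match is a description of the letters in this window.

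In AMY, Dusp1 ranged from 10.6 to 30.2 CPM (median 20.9, n = 15) after vehicle and from 16.6 to 62.5 CPM (median 34.0, n = 15) after dexamethasone. In CER it ranged from 12.7 to 51.6 CPM (median 30.0, n = 15) after vehicle and from 29.3 to 54.7 CPM (median 41.0, n = 15) after dexamethasone. The arms overlapped in both regions, but 13 of the 15 dexamethasone libraries of AMY stood above every vehicle library there, against 3 of 15 in CER. In AMY the Dusp1 ratio was 0.75 ± 0.14 (SE; adjusted p = 0.000336) on the log2 scale. In CER it was 0.54 ± 0.13 (SE; adjusted p = 0.00499).

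In dCA1 Dusp1 ranged from 5.52 to 32.4 CPM (median 21.1, n = 15) after vehicle and from 19.1 to 42.6 CPM (median 30.2, n = 13) after dexamethasone. In dDG it ranged from 12.2 to 35.4 CPM (median 20.2, n = 15) after vehicle and from 22.1 to 70.3 CPM (median 31.3, n = 15) after dexamethasone. All 15 dexamethasone libraries of dDG and 11 of 13 in dCA1 lay above the vehicle median of their region, and the arms overlapped in both. The log2 fold change was 0.61 ± 0.17 (SE; adjusted p = 0.0267) in dCA1, and with the replicate number as a block it was 0.51 (adjusted p = 0.0542), no longer past the threshold. In dDG it was 0.80 ± 0.17 (SE; adjusted p = 0.00196), a 1.74-fold difference and the largest of the 8 regions for this gene.

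In vDG Dusp1 ranged from 8.77 to 53.7 CPM (median 31.8, n = 15) after vehicle and from 24.2 to 100.3 CPM (median 60.5, n = 15) after dexamethasone. The highest value was that of the Gabra6-rich dexamethasone library. The log2 fold change was 0.75 ± 0.18 (SE; adjusted p = 0.00969), and without the 3 vDG libraries rich in Gabra6 it was 0.74 (adjusted p = 0.0119).

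In 3 regions Dusp1 did not pass. In PFC it ranged from 25.4 to 74.1 CPM (median 35.4, n = 15) after vehicle and from 36.2 to 66.8 CPM (median 53.5, n = 14) after dexamethasone. In PVN it ranged from 14.2 to 52.1 CPM (median 27.4, n = 14) after vehicle and from 27.9 to 56.4 CPM (median 38.5, n = 15) after dexamethasone. In vCA1 it ranged from 15.7 to 56.5 CPM (median 38.6, n = 14) after vehicle and from 29.0 to 67.3 CPM (median 45.3, n = 15) after dexamethasone. All 14 dexamethasone libraries of PFC and all 15 of PVN nevertheless lay above the vehicle median, although 0 of 14 and 1 of 15 lay above the highest vehicle library. The log2 fold changes were 0.25 ± 0.13 (SE; adjusted p = 0.397) in PFC, 0.45 ± 0.15 (SE; adjusted p = 0.0640) in PVN and 0.35 ± 0.13 (SE; adjusted p = 0.141) in vCA1. With the date of punching and the plate as factors, PVN passed at 0.48 (adjusted p = 0.0121), as it did with the replicate number as a block (0.45, adjusted p = 0.0402), and without the Gabra6-rich library vCA1 was at 0.42 (adjusted p = 0.0523). Over all alternatives that tested it, by edgeR or DESeq2, Dusp1 passed in 2 of 7 in PVN (adjusted p up to 0.0844). It passed in 0 of 8 in PFC (up to 0.421) and in 0 of 9 in vCA1 (up to 0.291).

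Over the 8 regions, 109 of 117 dexamethasone libraries held more Dusp1 than the vehicle median of their region. Within the 4 plates on which libraries were prepared, the mean of the dexamethasone libraries was the higher in 29 of 32 combinations of plate and region. Within dates of punching it was higher in 32 of 32, using the 4 of 5 dates that gave at least 2 libraries per arm. Group means of 13.7 to 43.9 raw Dusp1 counts per library limit the precision of single libraries.

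**Figure D2:**
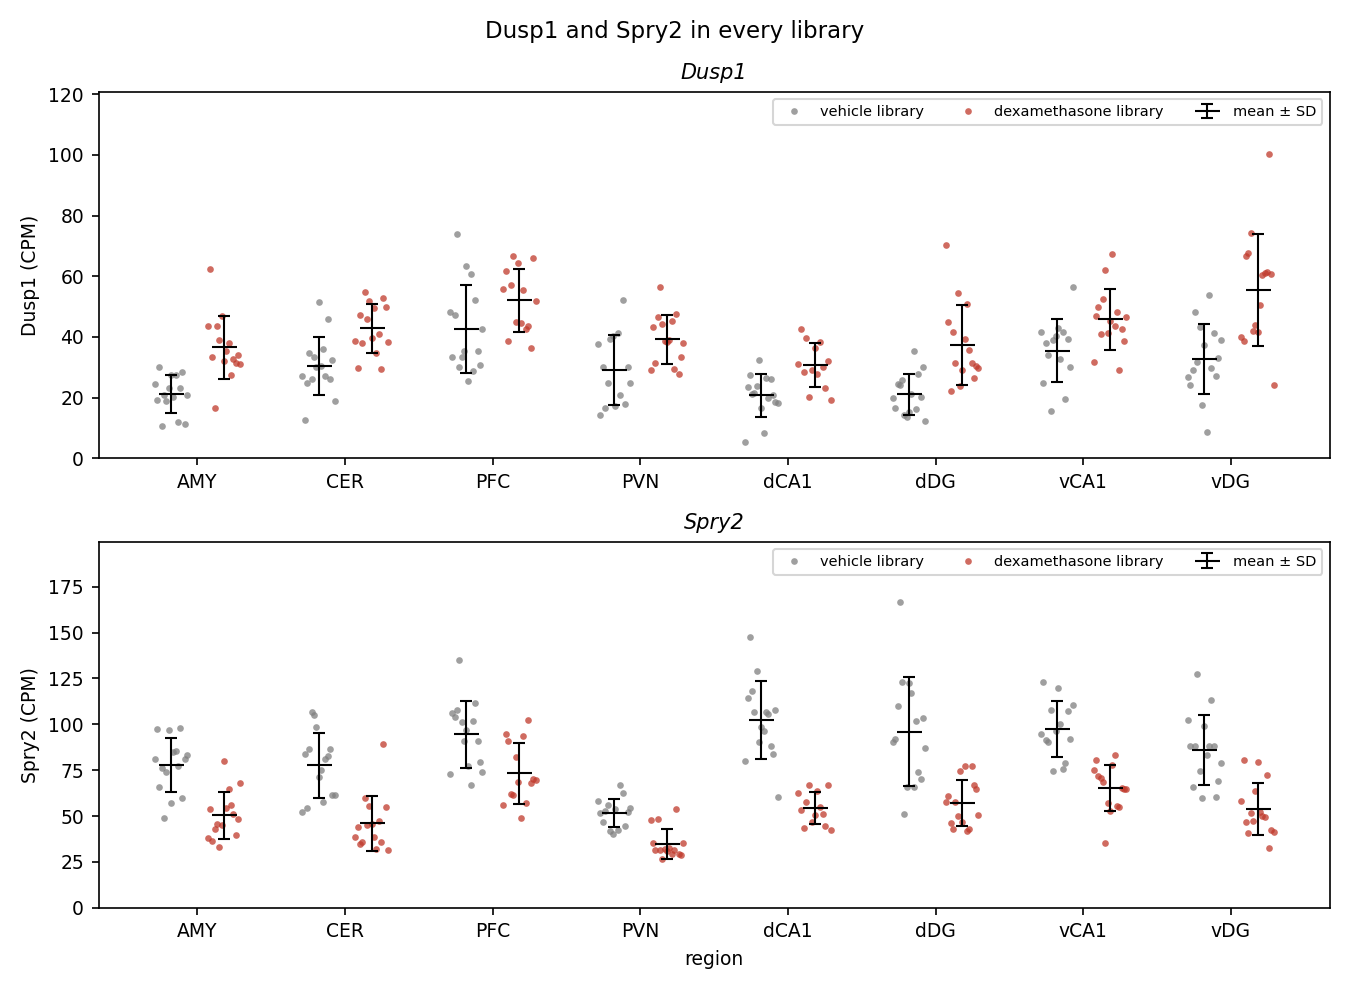
Level of Dusp1 (upper panel) and Spry2 (lower panel) in CPM on the vertical axis for each library of the 8 regions, grey for vehicle and red for dexamethasone, with the mean and SD as bars. The Dusp1 means after dexamethasone stand above the vehicle means in all 8 regions, with ratios of the plotted means of 1.22 in PFC to 1.77 in dDG, and the Spry2 means stand below them in all 8.

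Spry2, on chromosome 14 (105891949 to 105896819, minus strand), encodes an inhibitor of receptor tyrosine kinase signalling that acts at the level of RAS and RAF and is itself induced by ERK. In dCA1 its level ranged from 60.3 to 148 CPM (median 106, n = 15) after vehicle and from 42.7 to 67.2 CPM (median 53.6, n = 13) after dexamethasone. In dDG it ranged from 50.9 to 167 CPM (median 91.8, n = 15) after vehicle and from 42.0 to 77.5 CPM (median 57.5, n = 15) after dexamethasone. Every dexamethasone library of both regions lay under the vehicle median, and 9 of 13 in dCA1 and 7 of 15 in dDG lay under the lowest vehicle library. The log2 fold change of dCA1, -0.90 ± 0.11 (SE; adjusted p = 6.82e-08), left 0.537 of the vehicle level and was the largest of the 8. In dDG it was -0.74 ± 0.13 (SE; adjusted p = 0.000287).

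In vCA1 Spry2 ranged from 74.4 to 123 CPM (median 95.6, n = 14) after vehicle and from 35.2 to 83.2 CPM (median 65.4, n = 15) after dexamethasone. In vDG it ranged from 59.99 to 127 CPM (median 88.0, n = 15) after vehicle and from 32.6 to 80.7 CPM (median 50.1, n = 15) after dexamethasone. In each of these regions 11 of 15 dexamethasone libraries lay under the lowest vehicle library, and all 15 under the vehicle median. The log2 fold change was -0.58 ± 0.10 (SE; adjusted p = 8.99e-05) in vCA1 and -0.66 ± 0.12 (SE; adjusted p = 0.000261) in vDG. Without the Gabra6-rich libraries the values were -0.56 (adjusted p = 0.000184) and -0.62 (adjusted p = 0.00111). With the dentate level as a covariate, vCA1 stood at -0.47 (adjusted p = 0.00837).

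In AMY Spry2 ranged from 49.1 to 98.0 CPM (median 81.0, n = 15) after vehicle and from 33.4 to 80.0 CPM (median 48.3, n = 15) after dexamethasone. In CER it ranged from 52.1 to 107 CPM (median 81.1, n = 15) after vehicle and from 31.6 to 89.4 CPM (median 44.0, n = 15) after dexamethasone. The arms overlapped in both, and a single dexamethasone library of CER stood above the vehicle median there while 11 of 15 stood under the lowest vehicle library. The Spry2 ratio on the log2 scale was -0.61 ± 0.12 (SE; adjusted p = 0.000272) in AMY and -0.77 ± 0.13 (SE; adjusted p = 3.13e-05) in CER.

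In PVN, where Spry2 was least abundant, it ranged from 40.4 to 66.8 CPM (median 52.5, n = 14) after vehicle and from 26.8 to 53.9 CPM (median 31.6, n = 15) after dexamethasone. In PFC it ranged from 66.9 to 135 CPM (median 97.1, n = 15) after vehicle and from 48.8 to 102 CPM (median 69.2, n = 14) after dexamethasone. In PVN 12 of 15 dexamethasone libraries lay under the lowest vehicle library, against 5 of 14 in PFC. In PVN the log2 fold change was -0.57 ± 0.10 (SE; adjusted p = 0.000121). In PFC it was -0.36 ± 0.11 (SE; adjusted p = 0.0272), the smallest of the 8 regions.

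Across regions, 114 of 117 dexamethasone libraries held less Spry2 than the vehicle median of their region. The difference was negative in 32 of 32 combinations of plate and region and in 32 of 32 of date and region, over the same 4 dates. Of 67 values under alternative settings, all 67 were lower with an adjusted p under 0.05.

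Sprouty genes are also expressed by glia and vessels, so markers of those cells are given beside the Spry2 result. None of 6 neuronal markers was called by edgeR in any region (0 of 48 tests, 2 at an unadjusted p under 0.05, 0 by DESeq2). The same held for 4 tested mural cell markers (0 of 27 tests, 5 at an unadjusted p under 0.05, all lower, 0 by DESeq2). Of 7 astrocyte markers, 1 was higher and 1 lower, both in dCA1 (Aldh1l1 and Aqp4, 2 of 56 tests), with 2 higher and 6 lower at an unadjusted p under 0.05. DESeq2 called 1 astrocyte test higher and 3 lower, the lower ones in dCA1, PVN and vDG. Of 48 tests of 6 oligodendrocyte genes, only Mog in AMY was called, lower, while 8 tests were lower and 0 higher at an unadjusted p under 0.05, of which 4 were in vCA1. The median log2 fold change of the oligodendrocyte list was below 0 in 8 of 8 regions, from -0.40 in vCA1 to -0.016 in PFC. It was also below 0 in 8 of 8 for the endothelial (-0.49 to -0.040), mural (-0.43 to -0.046) and astrocyte lists (-0.17 to -0.020). For the neuronal, microglial and blood lists it was below 0 in 7 of 8 regions, and for oligodendrocyte precursors in 6 of 8. Among precursor genes Olig2 was higher in CER. Of 6 tested microglial markers only P2ry12 was called, lower in all 8 regions. Of 4 tested endothelial markers, Flt1 was lower in 8 regions and Itm2a in 3, while Pecam1 and Ly6c1 were called in none, and 3 further listed endothelial genes (Cldn5, Cdh5 and Tek) were too sparse to be tested. Of the 32 endothelial tests, 15 were lower and 2 higher at an unadjusted p under 0.05, and DESeq2 called 12 lower and 0 higher. The median summed level of the endothelial list ran from 282 to 346 CPM over the vehicle groups and from 207 to 269.8 CPM over the dexamethasone groups. Without Flt1 these medians were 141 to 168 CPM and 124 to 167 CPM, lower after dexamethasone in 8 of 8 regions, and Ly6c1 had log2 fold changes above 0 in all 8 (0.015 to 0.33; 2 at an unadjusted p under 0.05). For the microglial list these medians were 188 to 393 CPM and 179 to 335 CPM, for the neuronal list 2703 to 4337 CPM and 2663 to 4408 CPM, and for the oligodendrocyte list 2020 to 13825 CPM and 2081 to 13234 CPM. In vCA1 the oligodendrocyte sum had a median of 4607 CPM after vehicle and 3398 CPM after dexamethasone. The part of these markers in the Spry2 result was not tested.

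The 2 Spred genes encode membrane proteins related to Sprouty that bring neurofibromin to the plasma membrane, where it inactivates RAS. Spred1 is on chromosome 2 (117121374 to 117182279, plus strand) and Spred2 on chromosome 11 (19924375 to 20024026, plus strand). In CER Spred1 ranged from 211 to 284 CPM (median 246, n = 15) after vehicle and from 229.7 to 379.9 CPM (median 284, n = 15) after dexamethasone. In PVN it ranged from 186 to 268 CPM (median 226, n = 14) after vehicle and from 217 to 323 CPM (median 258, n = 15) after dexamethasone. In CER 8 of 15 dexamethasone libraries and in PVN 7 of 15 stood above the highest vehicle library, and none stood under the lowest. The log2 fold changes were 0.24 ± 0.073 (SE; adjusted p = 0.0408) in CER and 0.23 ± 0.068 (SE; adjusted p = 0.0272) in PVN. Both were positive in 4 of 4 plates, and both missed the threshold when no filter on low counts was applied (adjusted p = 0.0569 and 0.0620).

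In the other 6 regions Spred1 had log2 fold changes of -0.032 (dCA1) to 0.17 (AMY), with adjusted p-values of 0.182 to 0.988. Spred2 had log2 fold changes of -0.25 (CER) to 0.098 (vDG), with SE of 0.11 to 0.16. Its smallest adjusted p was 0.270, in PFC, where the mean was 40.2 ± 6.65 CPM (SD, n = 15) after vehicle and 33.9 ± 7.24 CPM (SD, n = 14) after dexamethasone. Spred1, with more counts, had smaller SE of 0.068 to 0.11.

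Dusp6 and Dusp4 encode ERK phosphatases, the first cytoplasmic and selective for ERK, the second nuclear. Dusp6 (chromosome 10, 99263231 to 99267488, plus strand) had log2 fold changes on both sides of 0. In CER it ranged from 19.0 to 66.5 CPM (median 41.5, n = 15) after vehicle and from 32.7 to 82.7 CPM (median 51.2, n = 15) after dexamethasone. The ratio there was 0.35 ± 0.15 (SE; adjusted p = 0.206) on the log2 scale. In vCA1 it ranged from 55.2 to 167 CPM (median 90.3, n = 14) after vehicle and from 45.3 to 137 CPM (median 72.8, n = 15) after dexamethasone. The ratio there was -0.31 ± 0.15 (SE; adjusted p = 0.325) on the log2 scale. These were its 2 most extreme regions, in opposite directions and neither past the threshold. In PFC the log2 fold change was -0.23 ± 0.12 (SE; adjusted p = 0.340), and in the other 5 regions it lay between -0.15 and 0.15. Vehicle libraries of dDG differed widely in Dusp6, from 20.4 to 164 CPM.

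Dusp4 (chromosome 8, 34807297 to 34819894, plus strand) had 375 counts over all 235 libraries, at most 8 in any one, and 0 in 76 of them. It passed the filter on low counts in no region. Its mean was highest in dDG, at 4.89 ± 4.64 CPM (SD, n = 15) after vehicle and 6.54 ± 3.22 CPM (SD, n = 15) after dexamethasone. In dCA1 it was at 3.03 ± 1.76 CPM (SD, n = 15) and 4.93 ± 2.49 CPM (SD, n = 13). In the 6 other regions every group mean lay between 0.612 and 2.29 CPM. With no filter the smallest adjusted p of Dusp4 was 0.535, in dCA1, where the log2 fold change was 0.61 (unadjusted p = 0.0731 by edgeR's test). How large a difference these counts could show was not tested.

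Dusp8, a phosphatase of JNK and p38, lies on chromosome 7 (142079490 to 142095843, minus strand). Its log2 fold changes ran from -0.20 in CER to 0.095 in vDG, with SE of 0.092 to 0.16 and a smallest adjusted p of 0.526. One vehicle library of dCA1 (replicate 4, 297943 counts in total) reached 494 CPM, against at most 245 CPM in any other library of that region. This library is also absent from the authors' deposited table of variance-stabilised values. Without it the log2 fold change of Dusp8 in dCA1 was 0.018 in place of -0.12.

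Dusp3 and Dusp26 encode small phosphatases outside the MKP group. Dusp3 (chromosome 11, 101971143 to 101987013, minus strand), also called VHR, acts on ERK and JNK. Its log2 fold changes were -0.17 (CER) to 0.036 (dCA1) and negative in 7 of 8 regions, with a smallest adjusted p of 0.469. Of its 4682 exon bases, 604 are shared with Gm20659 on the opposite strand, which had 1 count in all libraries together. Dusp26 (chromosome 8, 31089471 to 31097047, plus strand) is found chiefly in neurons and neuroendocrine cells. It had negative log2 fold changes in 8 of 8 regions, from -0.32 in dCA1 to -0.085 in AMY, and none passed the test. In vCA1 the sign turned to 0.072 with the dentate level in the fit, from -0.14 without it.

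In dCA1 Dusp26 ranged from 16.5 to 40.1 CPM (median 24.7, n = 15) after vehicle and from 13.2 to 37.8 CPM (median 19.9, n = 13) after dexamethasone. The arms overlapped, and 3 of 13 dexamethasone libraries lay under the lowest vehicle library. Its log2 fold change there was -0.32 ± 0.16 (SE; adjusted p = 0.372). It passed only with the dentate level as a covariate, at -0.50 (adjusted p = 0.0345), and the adjusted p without that term ranged up to 0.458 over the alternatives.

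**Figure D3:**
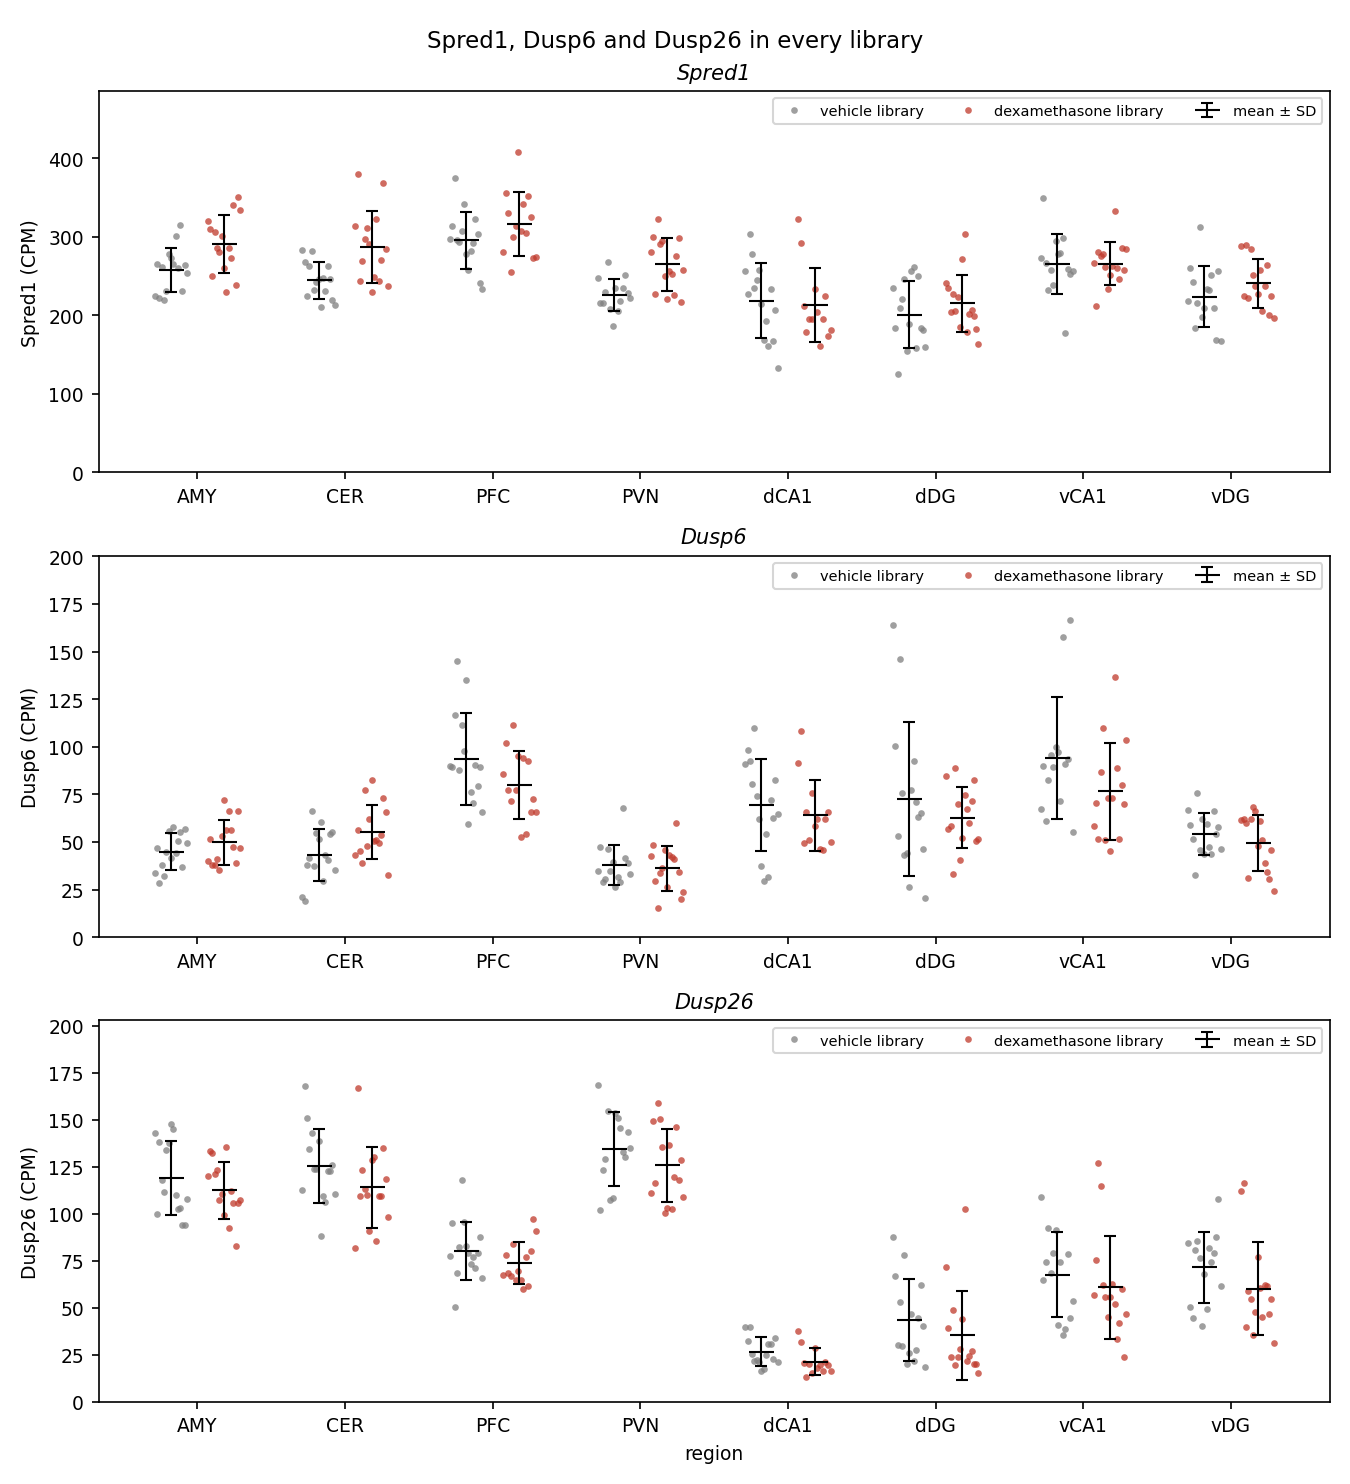
Level in CPM (vertical axis) of Spred1, Dusp6 and Dusp26 in each library of the 8 regions, grey for vehicle and red for dexamethasone, with the mean and SD as bars. The arms overlap in every region, also in CER and PVN, where Spred1 was called higher.

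Because each animal gave 6 to 8 regions, the values were also averaged per animal, as the mean over its regions of the log2 CPM minus the vehicle mean of the region. These are a description with no test. For Spry2 the 15 vehicle animals ran from -0.20 to 0.21 (median -0.015) and the 15 dexamethasone animals from -0.86 to -0.43 (median -0.60). The arms did not overlap. For Dusp1 the vehicle animals ran from -0.46 to 0.49 (median -0.033) and the dexamethasone animals from 0.29 to 0.82 (median 0.52), with 11 of 15 above every vehicle animal. For Spred1 the ranges were -0.24 to 0.13 (median 0.014) and -0.016 to 0.28 (median 0.12), with 7 of 15 above. In these animal means Spry2 and Dusp1 thus moved apart in the same 15 mice.

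Among the genes without a call, the animal means of Dusp26 ran from -0.27 to 0.40 (median -0.0068) after vehicle and from -0.48 to 0.25 (median -0.28) after dexamethasone. Of the dexamethasone animals, 9 of 15 lay under every vehicle animal for Dusp26 and 7 of 15 for Dusp3. For Dusp6, Dusp8 and Spred2 at most 1 of 15 did. Above every vehicle animal lay 1 of 15 for Dusp3 and 2 of 15 for Dusp6. Such counts were not computed over all genes, so they are not shown to be particular to these genes.

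Whether a response differed among regions was tested in 1 fit over all libraries with the animal as a block. None of the 8 tested members passed edgeR's test, against 1.27% of all genes (140 of 11053), and none had an unadjusted p under 0.05. The 3 members nearest to the threshold were Dusp1 (F = 1.93, adjusted p = 0.769), Spry2 (F = 1.91, adjusted p = 0.776) and Dusp6 (F = 1.77, adjusted p = 0.873). The regions in which Dusp1 passed and those in which it did not are therefore not shown to differ.

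The level of every tested member in vehicle libraries differed among the 8 regions by edgeR's test with the animal as a block (8 of 8, against 73.3% of all genes). Each gene is described by its lowest and highest region and by the steps between neighbours in that order. These pairs were picked from the same means, and the adjustment ran over the genes of a pair and not over pairs. Their p-values do not allow for that choice. Over the 28 pairs of regions, 134 of the members' 224 tests passed (59.8%; 14 to 22 pairs per gene), against 31.4% of all gene tests over the same pairs. Of the 56 steps between neighbours in the order of the means, 7 passed, a share that was not computed over all genes. Without the libraries rich in Gabra6 the same number of steps passed, and each of the 56 stayed on its side of the threshold, as did each of 16 comparisons of dorsal with ventral hippocampal punches.

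Among the tested members, Dusp26 varied most between regions. It was lowest in dCA1 at 26.7 ± 7.52 CPM (SD, n = 15), followed by dDG, vCA1, vDG, PFC, AMY and CER, and highest in PVN at 135 ± 19.7 CPM (SD, n = 14), a 5.12-fold range (adjusted p = 1.34e-29). The steps from dCA1 to dDG (adjusted p = 0.00797), from dDG to vCA1 (4.02e-05) and from PFC to AMY (4.04e-05) passed, and the others did not. Within the hippocampal punches it was lower in dCA1 than in vCA1 by 1.35 ± 0.15 (SE, log2; adjusted p = 1.07e-12) and lower in dDG than in vDG by 0.75 ± 0.14 (adjusted p = 1.35e-05). The dentate level of the vehicle libraries moved with both contrasts: it was 6.27 ± 0.538 (SD, n = 15) in dCA1 against 3.28 in vCA1, and 5.90 ± 1.02 (SD, n = 15) in dDG against 4.16 ± 0.947 (SD, n = 15) in vDG. Its part in the dorsal and ventral differences of the members was not tested.

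Dusp1 ran from 20.7 ± 6.95 CPM (SD, n = 15) in dCA1 through dDG, AMY, PVN, CER, vDG and vCA1 to 42.7 ± 14.5 CPM (SD, n = 15) in PFC, 2.06-fold. By median vCA1 (38.6 CPM) lay above PFC (35.4 CPM). None of the 7 steps between neighbours passed, although that from AMY to PVN had an unadjusted p of 0.0218. Like Dusp26 it was lower in dCA1 than in vCA1, by 0.80 ± 0.16 (SE, log2; adjusted p = 5.09e-05), and in dDG than in vDG, by 0.61 ± 0.16 (adjusted p = 0.00287). Spry2 was lowest in PVN at 51.7 ± 7.85 CPM (SD, n = 14), and the step from there to CER passed (adjusted p = 3.42e-05). The other 7 regions, up to 102 ± 21.2 CPM (SD, n = 15) in dCA1, showed no neighbouring step past the threshold. Spry2 did not differ past the threshold between dCA1 and vCA1 (0.068 ± 0.11, adjusted p = 0.723) or between dDG and vDG (0.17 ± 0.11, adjusted p = 0.331).

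Dusp6 ran from 37.9 ± 10.7 CPM (SD, n = 14) in PVN to 94.2 ± 32.0 CPM (SD, n = 14) in vCA1, 2.47-fold, with 1 step that passed, from dDG to PFC (adjusted p = 0.0249). Dusp8 ran from 95.7 ± 24.2 CPM (SD, n = 15) in CER to 196 ± 90.8 CPM (SD, n = 15) in dCA1, the latter raised by replicate 4. By median PFC (175.6 CPM) lay above dCA1 (173.9 CPM), and the step between them did not pass (adjusted p = 0.937). The step from CER to PVN passed (adjusted p = 0.0456). Spred2 ran from 18.2 ± 6.59 CPM (SD, n = 14) in PVN to 45.2 ± 10.4 CPM (SD, n = 15) in dCA1. Dusp3 was highest in CER at 209.8 ± 42.7 CPM (SD, n = 15) and lowest in PVN at 129.9 ± 16.7 CPM (SD, n = 14), with the step from vCA1 to PFC passing (adjusted p = 0.0268). Spred1 had the narrowest range, 1.47-fold, from 201 ± 42.5 CPM (SD, n = 15) in dDG to 296 ± 36.2 CPM (SD, n = 15) in PFC. By mean, PVN was the lowest region for 4 of the 8 tested members, but the step up from PVN passed only for Spry2. How often PVN is lowest over all genes was not computed. For Dusp3, Dusp6 and Spred2 that step had adjusted p-values of 0.839, 0.565 and 0.305, and by median AMY lay below PVN for Dusp3 (130.5 and 131.9 CPM) and Spred2 (20.3 and 20.5 CPM).

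**Figure D4:**
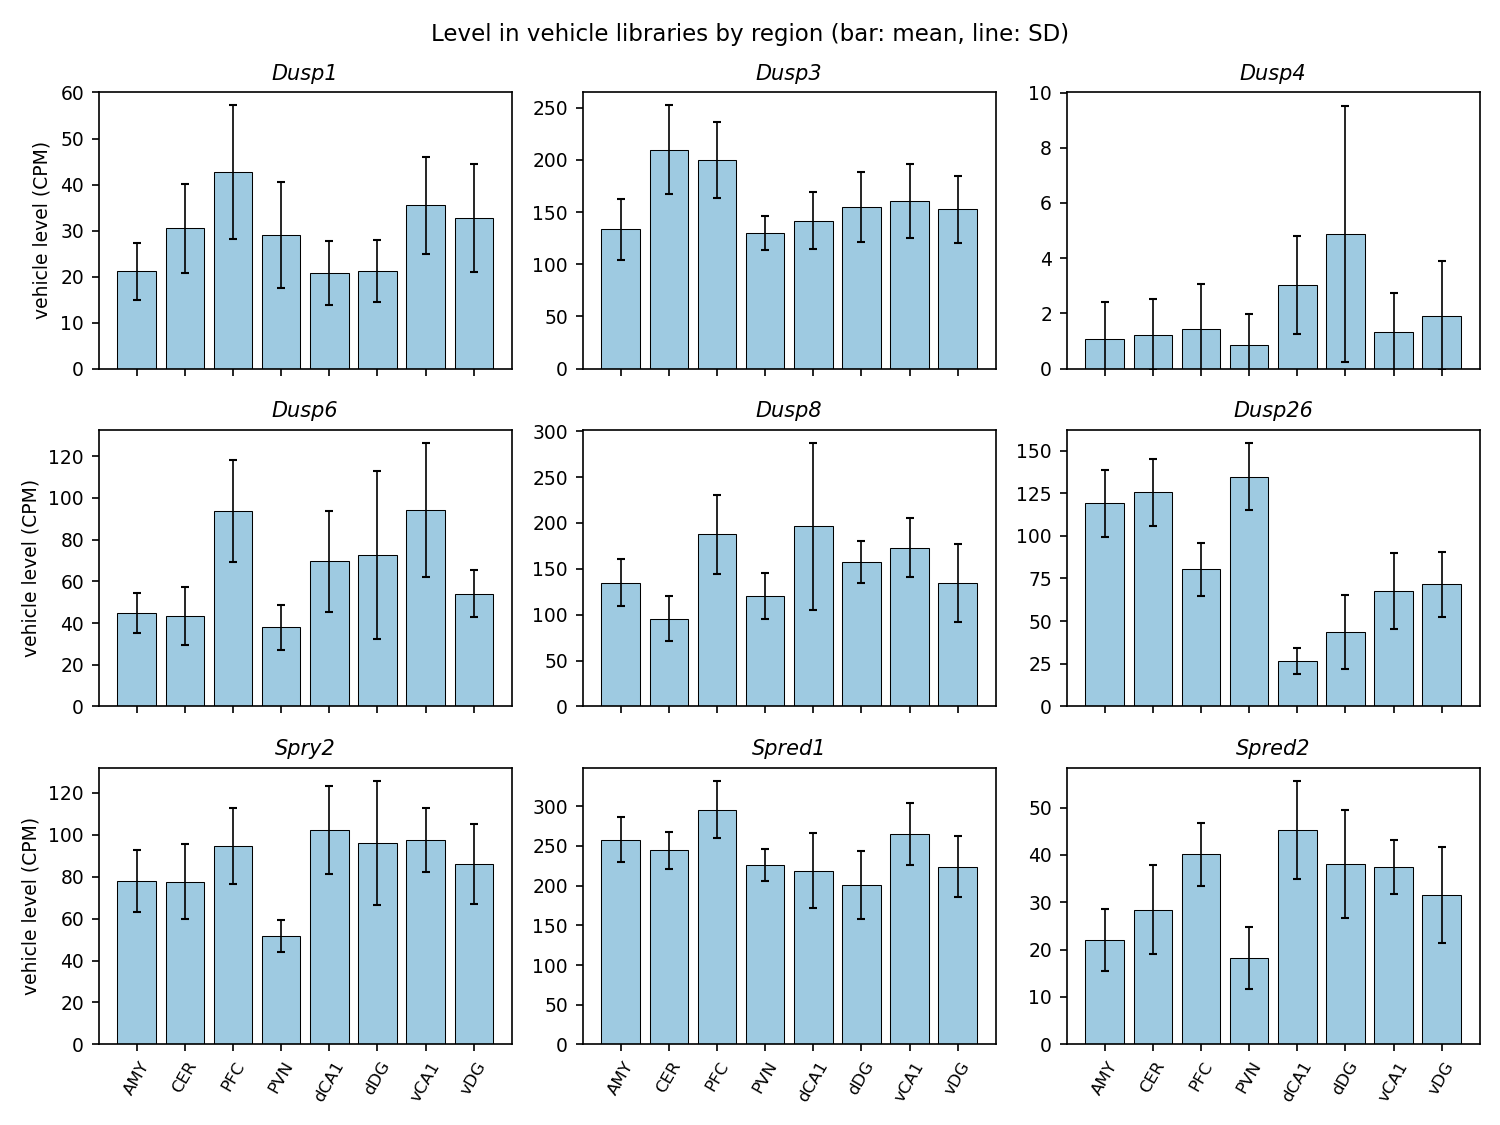
Mean level in vehicle libraries in CPM (bars, vertical axis from 0, lines are SD over 14 or 15 libraries) by region (horizontal axis), 1 panel per gene. Dusp26 is lowest in dCA1 and highest in PVN, whereas the means of Spry2, Spred2, Dusp6 and Dusp3 are lowest in PVN, where only the step of Spry2 to the next region passed.

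The genes most like each member over all 235 libraries were found by Pearson correlation of log2 CPM among 7914 other genes (7915 for Dusp4). These values are a description, since libraries share animals, plates and regions. Dusp26 was most like Nap1l5 (r = 0.86) and Dzank1 (0.86), and Dusp8 most like Ppp1r9b (0.85) and Dlgap3 (0.83). Spry2 was most like Fjx1 (0.71) and Ier5 (0.70), Dusp6 like Ppp2r2c (0.71) and Hivep2 (0.70), and Spred2 like Gfod1 (0.73) and Nfix (0.72). For Dusp3 they were Rell2 (0.68) and Cplx1 (0.65), and for Spred1 Pcdh10 (0.66) and Gabra3 (0.64). Dusp4, at its low depth, was most like Parp1 (0.61) and Cadm2 (0.60). Dusp1 had the weakest leading likeness, with Tm6sf1 (0.57) and Ptgfrn (0.55).

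The other genes of the pathway were taken from 9 lists of ligands, receptors, RAS regulators, kinases, induced transcripts and inhibitors. In 894 tests of 123 genes 46 were higher and 59 lower (11.7% called), against 5.17% of the 71817 tests over all genes (2323 higher, 1393 lower). These shares are a description, since the lists were chosen with earlier results of these data known. The tests also repeat the same genes over regions of the same animals, so they are not independent. Among the kinases, 1 of 146 tests was called in the JNK and p38 list (0.685%) and 4 of 121 in the ERK list (3.31%). The share of tests called was 32.3% among receptors (10 higher and 22 lower of 99), 19.4% among other dual specificity phosphatases (10 and 3 of 67), 17.3% among other feedback inhibitors (12 and 2 of 81) and 16.7% among transcripts that ERK induces (1 and 18 of 114). Adaptors and RAS regulators had 9.70% (5 and 11 of 165) and ligands 6.12% (4 and 2 of 98). Among receptors the 10 higher calls came from 3 genes and the 22 lower calls from 3 others (Kdr, Flt1 and Fgfr2). With the dentate level as a covariate, 5 of the 10 calls in vCA1 among the 16 pathway genes chosen for naming were lost. Of these, Dusp14 was at 0.37 in place of 0.67, Dusp18 at 0.48 in place of 0.69, Gab1 at -0.51 in place of -0.69, Rgs2 at -0.29 in place of -0.36 and Rasa2 at -0.40 in place of -0.36. The 25 calls of the named genes in the other hippocampal regions were kept, and 3 were gained (Gab1 and Dusp14 in dCA1 and Fgfr2 in dDG).

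At the receptors, Kdr and Flt1, the vascular endothelial growth factor receptors, were lower in 8 of 8 regions, Kdr by log2 fold changes of -2.13 (CER) to -1.26 (vDG) and Flt1 by -0.80 (dCA1) to -0.55 (CER). In CER Kdr was at 34.6 ± 11.8 CPM (SD, n = 15) after vehicle and 7.53 ± 3.03 CPM (SD, n = 15) after dexamethasone. The endothelial list without Flt1 also had lower medians after dexamethasone in 8 of 8 regions, while its member Ly6c1 had log2 fold changes above 0. The part of endothelial cell number in the Kdr and Flt1 result was not tested. The fibroblast growth factor receptors moved apart: Fgfr1 was higher in 7 regions, by up to 0.74 in PFC, and Fgfr2 lower in 6, by down to -0.81 in vCA1. Gab1, an adaptor that links receptors to RAS, was lower in 6 regions, with log2 fold changes of -0.86 to -0.47 over all 8. Rasa2, a RAS inactivator, was lower in 4, of which vCA1 was not called without its Gabra6-rich library (-0.33, adjusted p = 0.0707).

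Among feedback inhibitors the largest change was in Errfi1 (also called Mig6), which blocks the epidermal growth factor receptor. It was higher in 8 of 8 regions, with log2 fold changes of 1.34 (vCA1) to 2.00 (CER). In CER its level was 23.4 ± 7.66 CPM (SD, n = 15) after vehicle and 93.1 ± 16.1 CPM (SD, n = 15) after dexamethasone. Spry2, another inhibitor of receptor signalling, was lower in the same 8 regions. Of the other Sprouty and Spred genes, Spry1 and Spry4 were too sparse to be tested, and Spred3 was tested in 3 regions and called in none.

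Among 10 other dual specificity phosphatases that could be tested, 67 tests gave 10 higher and 3 lower calls. Dusp18 was higher in 6 regions, from 0.40 in dCA1 to 1.38 in PVN, and its response differed among regions (adjusted p = 9.05e-07). In PVN it was at 20.4 ± 4.82 CPM (SD, n = 14) after vehicle and 53.3 ± 9.89 CPM (SD, n = 15) after dexamethasone, while in PFC the levels were 50.1 ± 16.0 CPM (SD, n = 15) and 60.1 ± 10.2 CPM (SD, n = 14). Dusp14 was higher in dDG (0.66) and vCA1 (0.67) and lower in PFC (-0.41), and its response also differed among regions (adjusted p = 7.60e-05). In vehicle libraries it stood at 65.3 ± 28.2 CPM (SD, n = 15) in dDG. It was at 33.2 ± 11.0 CPM (SD, n = 14) in vCA1, where the dexamethasone libraries had the higher dentate level. With that level as a covariate Dusp14 was at 0.37 (adjusted p = 0.314) in vCA1, at 0.67 (adjusted p = 2.49e-05) in dDG and at 0.61 (adjusted p = 0.000100) in dCA1, where it was not called without it. The test among regions did not include the dentate level. Dusp1, by comparison, had positive log2 fold changes in 8 of 8 regions and did not pass the test of a difference among them.

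Of the transcripts that ERK induces, Ier5 was lower in 5 regions (AMY, PFC, PVN, dCA1 and vDG), Ier3 in 4 of 7 tested and Phlda1 in 4. Without the Gabra6-rich library Phlda1 was also called lower in vCA1 (-0.41, adjusted p = 0.0338). The 1 higher call of the list was Fosl2 in PVN (0.99, adjusted p = 0.000127), named here after its values were seen. Of the genes that neuronal activity induces, Arc was lower in CER (-0.79, adjusted p = 0.0124) and had log2 fold changes of -0.41 to 0.33 in the other 7 regions. Fos, Egr1, Junb and Nr4a1 were called by edgeR in 0 of 25 tests (4 at an unadjusted p under 0.05, 0 by DESeq2), with log2 fold changes of -0.47 to 0.44. These 5 genes too were picked after their values were seen. Jun was lower in dCA1 (-0.52, adjusted p = 0.0262, and -0.28, adjusted p = 0.0402, when the dentate level was in the fit). The response of Jun differed among regions (adjusted p = 0.0350), as did that of Rgs2, an inhibitor of G protein signalling that was higher in PVN (0.51) and lower in dCA1 (-0.42) and vCA1 (-0.36; adjusted p = 4.35e-05 for the difference). The same held for Ksr1, an ERK scaffold that was higher in PFC (0.62) and dDG (0.45; adjusted p = 0.00108), and for Rasa1, lower in dCA1 (-0.51; adjusted p = 0.0470).

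**Figure D5:**
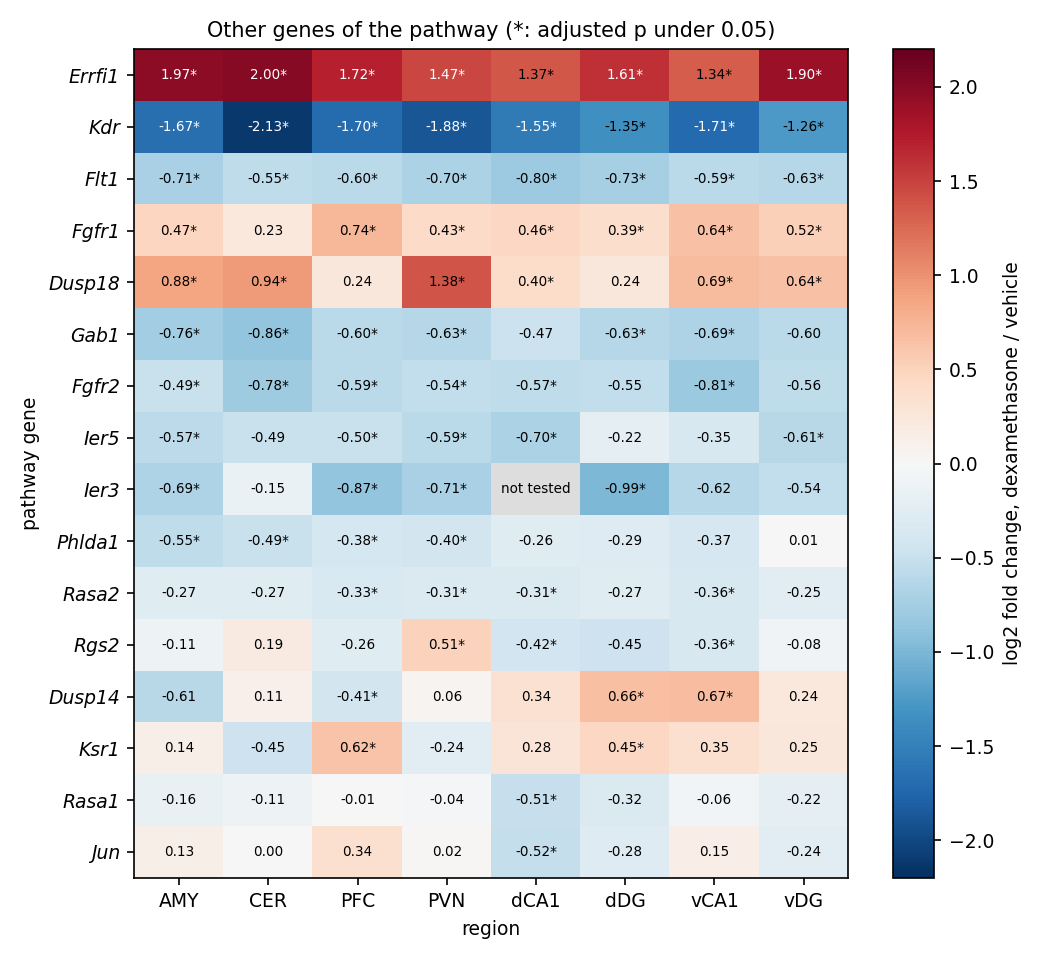
Log2 fold change of dexamethasone over vehicle (colour and printed value) for 16 other genes of the pathway (vertical axis) in the 8 regions (horizontal axis), with a star where the adjusted p was under 0.05. Errfi1 is higher and Kdr and Flt1 are lower in all 8 regions, and Dusp14 and Rgs2 have starred values of both signs.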

How the data were processed

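Per the labels, a QuantSeq 3' forward kit with unique molecular identifiers was used on the RNA of each punch, with reads from 1 end. The authors deposited raw counts per gene for 235 libraries, and variance-stabilised values on a log2 scale for 228 of them, which served here only to list the 7 absent libraries. Per the submitters' processing notes, FastQC 0.11.4, cutadapt, UMI-tools 0.5.4, STAR 2.6.0a, featureCounts 1.6.4, DESeq2 1.30.1 and R 4.0.5 were used with build mm10. Counting by strand is not given in the sources used here. Since 3' kits read 1 end of a transcript, isoforms are not resolved. Symbols came from GENCODE M21, and 99.9% of shared identifiers overlapped their GRCm38 position.

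The members and gene lists were chosen with earlier results of these data known. In each region, genes passing filterByExpr were scaled by trimmed mean of M values (TMM) and tested with edgeR 4.0.16 quasi-likelihood fits (dexamethasone against vehicle, no covariates). The Benjamini-Hochberg adjustment ran over all genes of the region (threshold 0.05). SE is the absolute log2 fold change over the square root of F. Differences among regions used 1 fit of 235 libraries with animal, region and region-by-treatment terms, and vehicle levels 1 fit of region and animal. Log2 CPM had a prior count of 2. Alternatives were RLE scaling, DESeq2 1.42.0, no filter, at least 10 counts in every library, a replicate block, date and plate, RIN, the dentate level (Dsp, Stxbp6, Lct, Tdo2, Plk5 and Npnt), and leaving out the absent libraries. Leaving out the 4 libraries with Gabra6 over 100 CPM was added after seeing the data. Pathway genes were named if called in at least 4 regions or if their response differed among regions, and likeness was given for the 2 genes of highest correlation. The fits were tested on simulated data. No 2 libraries of a group were within sampling noise (smallest chi-square per degree of freedom 1.34). R 4.3.3, Python 3.11.15, pandas 2.3.3, numpy 2.4.6 and matplotlib 3.10.9 were used.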

Additional observations from a re-analysis of the deposited data

How the results depend on the processing

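The 8 Spry2 calls held in all alternatives run, and the 5 Dusp1 calls in those that tested the gene, except that dCA1 missed with the replicate block (log2 fold change 0.51, adjusted p = 0.0542). The same block brought Dusp1 in PVN past the threshold (0.45, adjusted p = 0.0402). Replicate numbers were shared between arms, and the 115 same-numbered pairs came from the same plate in 115 cases and the same date in 109. Their deviations correlated from -0.158 to 0.509 (median 0.154, 73 of 115 over 0.1), and 33 of 115 vehicle libraries correlated best with their own number. The number to be met with by chance was not computed. The labels do not say that a number marks a pair and not every pair lay over 0.1, so the fit without the block is reported first. That fit takes no account of the plate and date that most same-numbered libraries share. The block gave 543 genes called in dDG, against 316 without it, and changed the sign of Dusp8 in dCA1 to 0.048.

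Requiring at least 10 counts in every library left Dusp1 tested in 2 regions, so the calls of higher members fell to 2 from 7, the responses differing among regions to 29 from 140, and the genes called to 345 in PFC (565), 292 in AMY (484), 292 in PVN (522), 286 in CER (558), 283 in vCA1 (497), 235 in dCA1 (408), 194 in vDG (366) and 188 in dDG (316). With the dentate level, 279 genes were called in vCA1. Values near 0 changed sign. With the dentate level these were Dusp26 in vCA1 (0.072) and Dusp3 in dCA1 (-0.023). Without the absent libraries they were Dusp8 (0.018) and Spred1 (0.0040) in dCA1 and Spred1 in vCA1 (-0.00057), which was -0.00061 with the 10-count filter. The cause was not tested. The 4 libraries rich in Gabra6 changed no member's call. Depth limits Dusp4 (at most 8 counts in a library).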

Other observations

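Some other pathway genes were called in 1 to 3 regions and were picked after their values were seen. Fgf2, a ligand of the fibroblast growth factor receptors, was higher in CER, PVN and vCA1, and its log2 fold changes over the 5 regions where it was tested were 0.59 to 0.93. Ptpn11, the phosphatase SHP2 that helps receptors to activate RAS, was higher in AMY, CER and PVN, with log2 fold changes of 0.097 to 0.61 over 8 regions. Of the ERK phosphatases, Dusp7 was lower in CER and dCA1 (-0.41 to -0.032 over 8 regions), and Dusp5, tested in 3 regions, was higher in PFC. Dusp16, a JNK phosphatase tested in 6 regions, was also higher in PFC. Etv5, a transcription factor induced by ERK, was lower in CER and vCA1, with log2 fold changes of -0.77 to -0.22 over 8 regions.

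Between pairs of members, the log2 CPM over the 235 libraries correlated from r = -0.59 for Dusp26 with Spred2 to r = 0.48 for Dusp6 with Spry2. This describes libraries of 8 regions that share animals and plates. Dusp4 with Dusp26 stood at -0.55 and Dusp8 with Dusp26 at -0.47.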
